A study of Homo sapiens with 59 samples.

Results

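Messenger RNA levels of 10 nuclear genes for mitochondrial transcription and mitochondrial RNA handling (TFAM, POLRMT, TEFM, TFB1M, TFB2M, MTERF4, LRPPRC, SLIRP, NSUN4 and PNPT1) were followed across 20 treatment groups of HepG2 cells. The genes were taken by name from the deposited table of 60675 genes, for their function, with earlier results of these data known. All 10 were among the 16641 genes with enough reads to be tested. HepG2 is an established human line grown from a liver tumour. Every group had been exposed for 24 h. The vehicle group received DMSO (0.1% in the sample labels, 2% in the series text), and the positive control received wortmannin, an inhibitor of phosphoinositide 3-kinases, at 10 µM. The other 18 groups received water extracts of 6 herbal drugs at 3 doses. Zizyphi Fructus, Scutellariae Radix, Pinelliae Tuber, Zingiberis Rhizoma (ginger) and Zingiberis Rhizoma Recens (fresh ginger) were given at 500, 100 and 20 µg/mL. Coptidis Rhizoma was given at 210, 42 and 8.4 µg/mL. The series text sets the top dose of an extract below 500 µg/mL where its IC20 lies below that. The labels of the extract and wortmannin groups name no DMSO content. There were 3 libraries in each of 19 groups and 2 in the group of Pinelliae Tuber at 20 µg/mL, 59 in all. Whether replicates are independent cultures is not stated, and p-values thus reflect only the spread between these libraries, which may be technical. The work used 1 tumour cell line and 1 exposure time.

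Mitochondrial DNA is copied into long polycistronic RNAs by a dedicated RNA polymerase, which needs a DNA-bending factor to load at the promoters, a second factor to open the DNA, and an elongation factor to keep moving. The long transcripts are then cut into ribosomal, transfer and messenger RNAs. Their lifetime depends on a stabilising complex that coats the messenger RNAs and on a degradation machine that removes unwanted RNA, while methyltransferases modify the ribosomal RNA during ribosome assembly. All of these proteins are encoded in the nucleus and imported, and hepatocytes, rich in mitochondria, express them throughout.

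Libraries held between 21582620 and 31392112 counts. Levels are given as CPM, counts per 1000000 counts of a library, after TMM scaling, which corrects library sizes for composition. Changes are log2 ratios with standard errors (SE) from edgeR's quasi-likelihood test. A gene is said to have risen or fallen when its p-value, adjusted over all genes tested by the Benjamini-Hochberg method, was under 0.05. Hepatocyte markers (10 genes, ALB and AFP among them) summed to between 25400 and 52000 CPM per library. The fibroblast list reached at most 1.49 CPM, the endothelial list 5.28 CPM and the squamous list 0.0438 CPM, with COL1A2 and KRT5 at 0 in every library. The leukocyte list summed to between 1090 and 2710 CPM through CD68 and LYZ, while PTPRC and CD3E, its defining genes, had too few reads to be tested. Its group means ran from 1150 CPM with Coptidis Rhizoma at 210 µg/mL through 1400 CPM with vehicle to 2690 CPM with Zingiberis Rhizoma at 500 µg/mL, and its part in the results was not tested. In bulk RNA, fewer cells with a transcript and less of it per cell cannot be told apart. In 3 libraries (replicate 1 of Zingiberis Rhizoma at 500 µg/mL, replicate 3 of Pinelliae Tuber at 100 µg/mL and replicate 1 of Zizyphi Fructus at 20 µg/mL) counts stood apart from both other libraries of the group, with a mean chi-square above 15 per gene against each of them.

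Promoter stretches are shown for 3 members, POLRMT, TFB1M and MTERF4, because POLRMT and MTERF4 moved furthest from vehicle, in opposite directions, and TFB1M because it carries the same pair of motifs as POLRMT, so the 3 stretches do not stand for the whole set. They come from windows of 250 bases before to 50 after each gene's RefSeq start (GRCh38.p14), which were found for all 10 members. The stretches were cut to the part free of annotated exons. The letters searched on both strands were GCATGCGC, the core recognised by nuclear respiratory factor 1 (NRF1), CCGGAAG, an ETS-type core of the kind bound by the GABP factor, AAGATGGC, a core of the factor YY1, and the E-box CACGTG. Matches are in capitals, reading 5′ to 3′ along the gene's strand.
POLRMT, chr19:633605-633787, minus strand: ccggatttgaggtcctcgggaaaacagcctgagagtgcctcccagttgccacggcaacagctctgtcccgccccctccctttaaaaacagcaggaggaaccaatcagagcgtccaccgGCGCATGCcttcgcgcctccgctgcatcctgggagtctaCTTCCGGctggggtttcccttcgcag
TFB1M, chr6:155314494-155314734, minus strand: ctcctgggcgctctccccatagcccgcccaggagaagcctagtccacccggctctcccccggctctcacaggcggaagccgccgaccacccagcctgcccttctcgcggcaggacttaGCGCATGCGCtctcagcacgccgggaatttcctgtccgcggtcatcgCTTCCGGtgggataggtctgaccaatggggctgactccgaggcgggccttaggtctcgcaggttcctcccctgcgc
MTERF4, chr2:241102333-241102537, minus strand: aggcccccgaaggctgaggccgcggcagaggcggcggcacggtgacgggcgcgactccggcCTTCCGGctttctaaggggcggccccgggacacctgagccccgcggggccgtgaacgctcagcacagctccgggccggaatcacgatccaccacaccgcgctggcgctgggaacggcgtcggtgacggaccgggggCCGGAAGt

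The POLRMT stretch held 1 match to the NRF1 core and 1 to the ETS core. In TFB1M the NRF1 core was read on both strands over the same 10 bases, which counts as 2 matches, and the ETS core once. The MTERF4 stretch held 2 ETS matches and no NRF1 core. Over the full windows of the 10 members, the NRF1 core was found in 3 (POLRMT, TFB1M and TFB2M), the ETS core in 5 (POLRMT, TFB1M, MTERF4, TEFM and SLIRP), the YY1 core in 2 (MTERF4 and SLIRP) and the E-box in 0. TFAM, NSUN4, LRPPRC and PNPT1 held none of the 4 in these windows. NSUN4 and SLIRP each had more than 1 window. The windows of TFAM, TEFM and NSUN4 lie wholly inside the gene coordinates given below. Bases before those gene starts were therefore not searched, and only exact letters were counted. Over all 35116 promoter windows of that length, 3.05% held the NRF1 core, 10.3% the ETS core, 2.89% the YY1 core and 7.26% the E-box. A match describes letters only, and no binding was measured here.

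Vehicle levels were divided by exon length, the union of exons of all GENCODE 29 transcripts of a gene, whether expressed or not. They ranked LRPPRC first at 57.0 CPM per kb, then SLIRP (28.4), TFAM (21.3), TFB1M (18.4), PNPT1 (15.2), TFB2M (13.5), POLRMT (12.5), MTERF4 (5.91), NSUN4 (3.31) and TEFM (3.13). The annotation used for counting is not given in the sources used here, so these per-length levels rest on a stated but possibly different set of exons. Levels of each gene moved little over the 20 groups. The group means of MTERF4 spanned 0.69 on the log2 scale, the widest of the 10, followed by PNPT1 at 0.62 and POLRMT at 0.60. TEFM was the narrowest at 0.29.

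The main pattern against vehicle was a rise of POLRMT with a fall of MTERF4 and TFAM at the top doses, called with Coptidis Rhizoma, Scutellariae Radix, both ginger extracts and, with smaller changes, Pinelliae Tuber, and a fall of 6 members with wortmannin. With wortmannin 0 rose and 6 fell, where 32.2% of all genes tested passed and 16% fell. With Coptidis Rhizoma at 210 µg/mL, 3 of 10 members rose and 5 fell, where 69.4% of all genes passed. At 42 µg/mL 4 rose and 3 fell (46.9% of all genes), and at 8.4 µg/mL 3 rose and 0 fell (16% of all genes called, 8.58% higher). Scutellariae Radix at 500 µg/mL gave 3 higher and 3 lower (50.2% of all genes), and at 100 and 20 µg/mL POLRMT alone was higher (14.6% and 4.75% of all genes called, 7.28% and 2.58% higher). Zingiberis Rhizoma Recens gave 3 higher and 4 lower at 500 µg/mL (46% of all genes), 2 and 1 at 100 µg/mL (22.2%), and POLRMT alone, higher, at 20 µg/mL (5.13% of all genes called, 2.75% higher). Zingiberis Rhizoma gave 3 higher and 3 lower at 500 µg/mL (42.4% of all genes), 3 and 1 at 100 µg/mL (17.5%), and 0 at 20 µg/mL, where 0.0841% of all genes passed. At the top doses of these extracts most members were called and so was a large share of all genes, so a count of members alone sets them little apart from the background.

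Pinelliae Tuber at 500 µg/mL gave 1 higher and 3 lower, where 4.57% of all genes passed. Leaving out any of 4 single libraries (vehicle replicates 1 and 2, extract replicates 1 and 3) left 2 of these 4 calls. Zizyphi Fructus at 500 µg/mL gave MTERF4 alone, lower, with 3.61% of all genes called and 1.53% lower, and 3 lower without the libraries that stand apart. At 100 and 20 µg/mL no member passed with Pinelliae Tuber (0.204% and 0.00601% of all genes) or Zizyphi Fructus (0.294% and 1.99%). All 19 comparisons use the same 3 vehicle libraries, so their calls are not independent of each other. Of 58 calls against vehicle, 42 held under every alternative processing and with each library left out in turn.

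**Figure D1:**
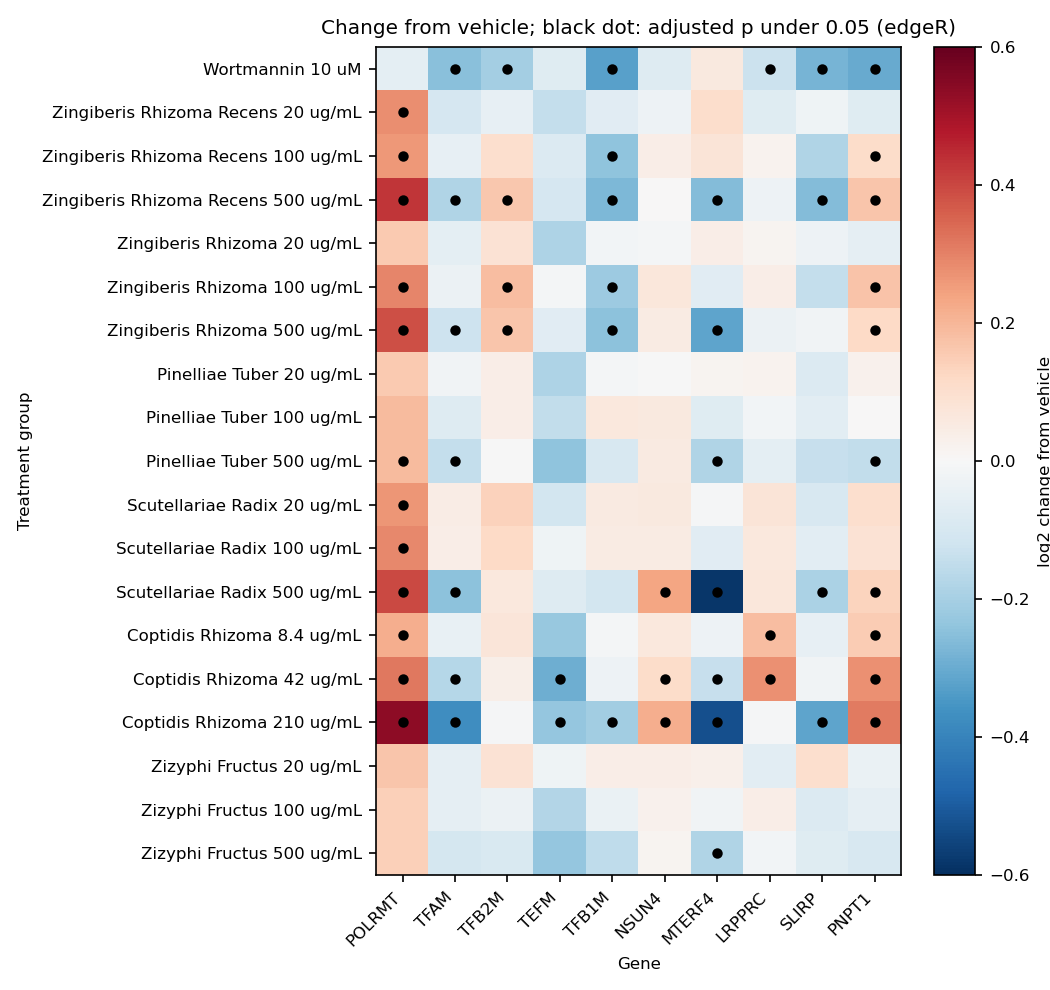
Heat map of the log2 change from vehicle of the 10 genes (columns, ordered by role) in 19 treatment groups (rows), blue for lower, red for higher, with a black dot where the adjusted p was under 0.05. POLRMT is red in all 18 extract rows and MTERF4 is darkest blue with Scutellariae Radix at 500 µg/mL (-0.58) and Coptidis Rhizoma at 210 µg/mL (-0.53).

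POLRMT, the mitochondrial RNA polymerase (chromosome 19, 617224 to 633604, minus strand), was measured at 63.1, 63.9 and 64.8 CPM in the vehicle libraries. With Coptidis Rhizoma at 210 µg/mL it stood at 95.7, 88.9 and 93.3 CPM, well above them. The change was +0.54 (SE 0.05, adjusted p = 1.19e-12, edgeR). It was +0.43 with Zingiberis Rhizoma Recens at 500 µg/mL (78.1, 93.5 and 86.6 CPM), +0.40 with Scutellariae Radix at 500 µg/mL (85.2, 83.4 and 84.0 CPM) and +0.39 with Zingiberis Rhizoma at 500 µg/mL (85.8, 82.9 and 82.5 CPM). POLRMT rose in 12 of 19 comparisons with vehicle and fell in 0. Of the 12 calls 9 held under every alternative. Those of Zingiberis Rhizoma Recens at 20 µg/mL and Coptidis Rhizoma at 8.4 µg/mL were lost without replicate 3 of the group (adjusted p = 0.0719 and 0.0697), and that of Pinelliae Tuber at 500 µg/mL without any of 5 single libraries (highest adjusted p 0.122). The pseudogene POLRMTP1, which can share reads with POLRMT, was at 0.449 to 1.42 CPM over the libraries. It rose with Coptidis Rhizoma at 210 µg/mL (+0.93, adjusted p = 0.000883) and with Zingiberis Rhizoma Recens at 500 µg/mL (+0.72, adjusted p = 0.0179) and 20 µg/mL (+0.81, adjusted p = 0.0453), and how reads were split between them was not tested.

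All 53 extract libraries held more POLRMT than all 3 vehicle and all 3 wortmannin libraries, whose highest value was 64.8 CPM. The first number in the sample titles separates the same libraries. The code starts with A1 for vehicle and with 1 for wortmannin, and both are read as number 1 here. Whether A1 and 1 mean the same is not stated. The number is 2 for the ginger extracts, 3 for Pinelliae Tuber and Scutellariae Radix and 4 for Coptidis Rhizoma and Zizyphi Fructus. Every title also carries the label BatchA. The meaning of the number is not stated. For comparisons of extracts with vehicle, the number and the extracts thus cannot be told apart. The comparison of top and bottom dose within an extract stays inside 1 title number. There POLRMT rose in 4 of 6 extracts, as given with the dose comparisons, and 2 of these 4 calls held under every alternative. At the bottom doses POLRMT already differed from vehicle by +0.155 (Pinelliae Tuber) to +0.277 (Zingiberis Rhizoma Recens). These bottom-dose differences were called with Zingiberis Rhizoma Recens, Scutellariae Radix and Coptidis Rhizoma only.

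**Figure D2:**
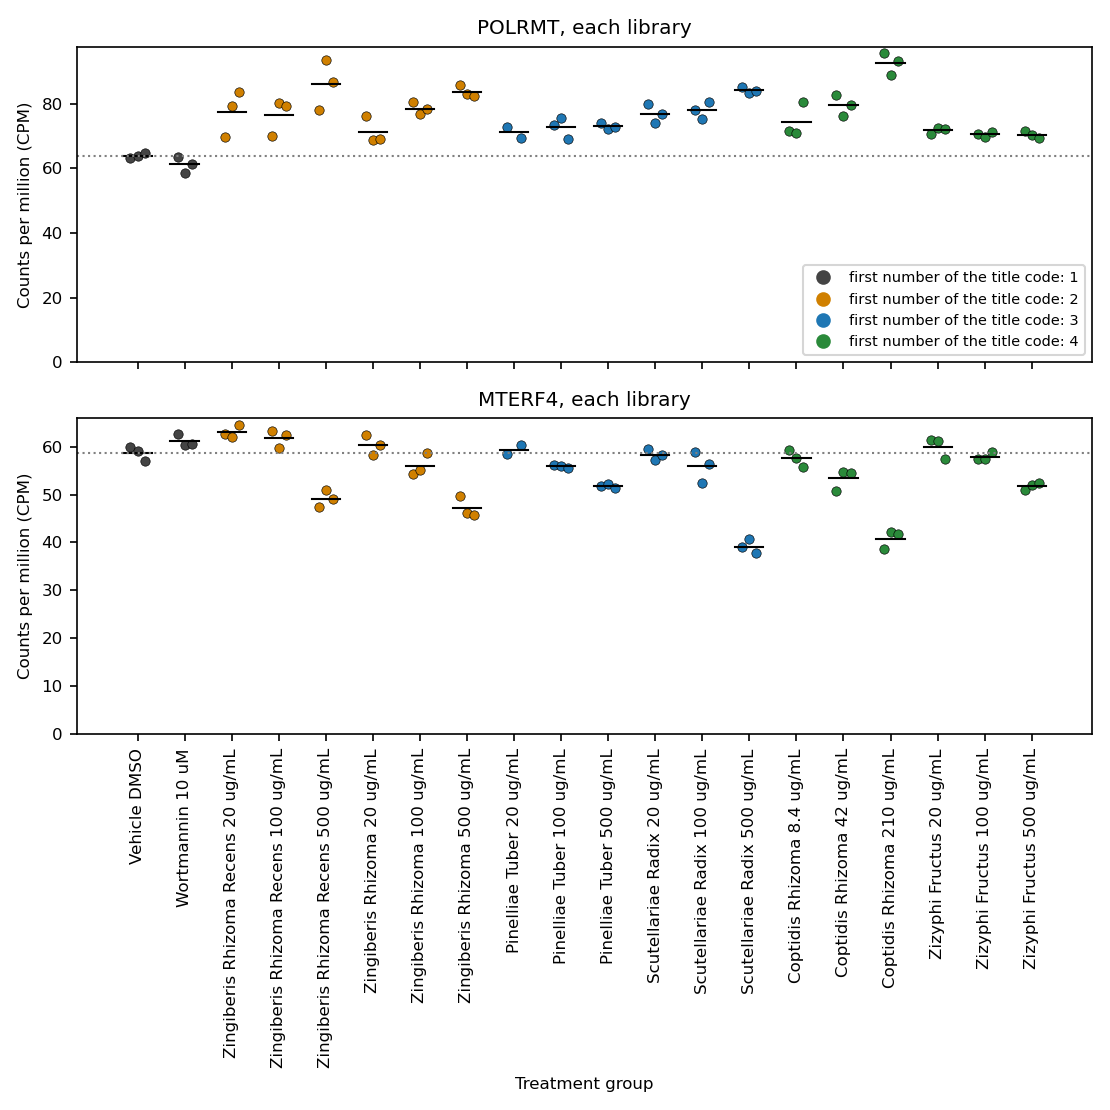
POLRMT (top) and MTERF4 (bottom) in CPM (linear axes from 0) for each of 59 libraries by treatment group. Points are libraries, coloured by the first number of the title code, short lines are group means and the dotted line is the vehicle mean. POLRMT lies above the vehicle libraries in all 53 extract libraries, while MTERF4 drops at the top dose of each extract.

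TFAM, which bends and packages mitochondrial DNA and recruits the polymerase to promoters (chromosome 10, 58385022 to 58399221, plus strand), was at 117, 124 and 118 CPM with vehicle. With Coptidis Rhizoma at 210 µg/mL the libraries were at 95.2, 90.4 and 91.2 CPM, below every vehicle library, a fall of 0.38 on the log2 scale (SE 0.04, adjusted p = 3.49e-13). At 42 µg/mL they were at 111, 101 and 107 CPM (-0.17, adjusted p = 6.66e-05), and at 8.4 µg/mL at 119, 116 and 114 CPM, overlapping vehicle (-0.04, not called). TFAM also fell with wortmannin (100, 103 and 98.5 CPM, -0.25) and with Scutellariae Radix at 500 µg/mL (99.0, 102 and 102 CPM, -0.25). Smaller falls were called with Zingiberis Rhizoma Recens (-0.18), Zingiberis Rhizoma (-0.13) and Pinelliae Tuber (-0.14) at 500 µg/mL. That of Zingiberis Rhizoma lost its call without the filter on low counts (adjusted p = 0.0549), and that of Pinelliae Tuber lost it without extract replicate 1 or 3 or vehicle replicate 2 (adjusted p = 0.0871, 0.128 and 0.123). TFAM rose in no comparison. Against vehicle, POLRMT and TFAM, partners at the same promoter, were thus called in opposite directions with 5 of the extracts at the top dose. Against the bottom dose of the same extract, both were called, in opposite directions, only with Coptidis Rhizoma and Scutellariae Radix. With Scutellariae Radix that call of POLRMT was lost when single libraries were left out.

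TFB2M, the factor that opens promoter DNA for the polymerase (chromosome 1, 246540560 to 246566324, minus strand), was at 25.5, 24.3 and 25.0 CPM with vehicle. It rose with Zingiberis Rhizoma Recens at 500 µg/mL (28.1, 28.8 and 27.0 CPM, +0.16, adjusted p = 0.0375), Zingiberis Rhizoma at 500 µg/mL (26.1, 28.2 and 29.6 CPM, +0.17, adjusted p = 0.0359) and Zingiberis Rhizoma at 100 µg/mL (28.9, 28.5 and 27.7 CPM, +0.19, adjusted p = 0.0411). It fell with wortmannin (23.0, 20.9 and 20.9 CPM, -0.21, adjusted p = 0.0143). In all 4 groups the values did not overlap those of vehicle. None of the 4 calls held with every library left out in turn. The highest adjusted p was 0.147, 0.177, 0.153 and 0.062 in that order, and the directions stayed. For Zingiberis Rhizoma at 100 µg/mL any of the 6 libraries decided the call.

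TEFM, the elongation factor (chromosome 17, 30897336 to 30906820, minus strand), was the scarcest member at 10.9, 10.4 and 8.93 CPM with vehicle, and held between 197 and 303 counts per library over all 59. Its fitted change was below 0 in all 18 extract groups and passed the test in 2, Coptidis Rhizoma at 42 µg/mL (8.53, 7.98 and 8.22 CPM, -0.29, adjusted p = 0.00698) and at 210 µg/mL (8.40, 8.36 and 9.02 CPM, -0.23, adjusted p = 0.0201). At 210 µg/mL the values overlap those of vehicle replicate 3. Without vehicle replicate 1 neither passed (adjusted p = 0.0592 and 0.12), and no top-against-bottom dose comparison called TEFM. Since vehicle is the common partner of the 18 groups, the shared sign is no independent evidence. Exons of TEFM share 9.34% of their bases with ADAP2 and 16.8% with the antisense gene AC130324.3 on the opposite strand. ADAP2 was at 0.579 to 3.68 CPM over the libraries. Its largest rises were with Coptidis Rhizoma at 210 µg/mL (+2.05, adjusted p = 4.9e-14) and 42 µg/mL (+0.94, adjusted p = 0.000156). The part of these overlaps in the TEFM values was not tested.

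TFB1M, a paralogue of TFB2M that dimethylates the ribosomal RNA of the small mitochondrial subunit (chromosome 6, 155257509 to 155314493, minus strand), was at 50.1, 51.0 and 49.7 CPM with vehicle. Wortmannin libraries were at 40.4, 41.0 and 39.2 CPM, a fall of 0.32 on the log2 scale (SE 0.05, adjusted p = 2.46e-06). The ginger extracts gave similar levels at 500 and at 100 µg/mL. Zingiberis Rhizoma Recens gave 42.7, 41.1 and 41.3 CPM at 500 µg/mL (-0.27) and 44.3, 40.3 and 42.9 CPM at 100 µg/mL (-0.24). Zingiberis Rhizoma gave 40.2, 42.4 and 44.5 CPM (-0.25) and 43.3, 43.9 and 42.6 CPM (-0.22). All of these lie below every vehicle library. Coptidis Rhizoma at 210 µg/mL was the sixth group with a fall (43.6, 41.1 and 45.8 CPM, -0.21, adjusted p = 0.00048). All 6 calls held under every alternative. TFB1M and TFB2M, which share ancestry but not task, moved in opposite directions in 3 ginger groups and fell together with wortmannin. Exons of TFB1M share 7.86% of their bases with TIAM2 on the opposite strand. TIAM2 was at 7.68 to 17.1 CPM over the libraries. Its largest rise from vehicle was with Coptidis Rhizoma at 210 µg/mL (+0.88, adjusted p = 1.29e-12), and its part in the TFB1M values was not tested.

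NSUN4, a methyltransferase of the small-subunit ribosomal RNA that works with MTERF4 (chromosome 1, 46340177 to 46365152, plus strand), was at 27.4, 27.9 and 28.8 CPM with vehicle. It rose with Scutellariae Radix at 500 µg/mL (31.8, 35.7 and 31.7 CPM, +0.24, SE 0.04, adjusted p = 3.88e-06) and with Coptidis Rhizoma at 210 µg/mL (31.9, 32.7 and 33.0 CPM, +0.22, adjusted p = 1.09e-05), with all libraries above vehicle. A rise of 0.11 with Coptidis Rhizoma at 42 µg/mL was called by edgeR (adjusted p = 0.0273) and not by DESeq2 (adjusted p = 0.0602), nor without extract replicate 2 or vehicle replicate 1 or 2 (adjusted p = 0.0666, 0.121 and 0.0774).

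MTERF4, which binds NSUN4 and brings it to the large ribosomal subunit during assembly (chromosome 2, 241072169 to 241102332, minus strand), fell at the top dose of all 6 extracts. Vehicle libraries were at 59.9, 59.1 and 57.1 CPM. Scutellariae Radix at 500 µg/mL gave 39.0, 40.6 and 37.8 CPM, a fall of 33.4% (-0.58, SE 0.04, adjusted p = 2.78e-17). Coptidis Rhizoma at 210 µg/mL gave 38.6, 42.1 and 41.7 CPM (-0.53, SE 0.04, adjusted p = 2.99e-16). Each of these 6 libraries lies below all libraries of every other group. The falls were smaller with Zingiberis Rhizoma (49.8, 46.1 and 45.7 CPM, -0.32) and Zingiberis Rhizoma Recens (47.3, 51.0 and 49.0 CPM, -0.26) at 500 µg/mL, and smallest with Pinelliae Tuber (51.7, 52.2 and 51.4 CPM, -0.18) and Zizyphi Fructus (50.9, 51.9 and 52.4 CPM, -0.18). Coptidis Rhizoma at 42 µg/mL was lower by 0.14 on the log2 scale (50.8, 54.8 and 54.5 CPM, adjusted p = 0.00345), and this call was lost without replicate 1 of that group (adjusted p = 0.0796) or without the filter on low counts (0.0664). Wortmannin, which lowered 6 other members, gave 62.7, 60.3 and 60.5 CPM (+0.06, not called). MTERF4 and its partner NSUN4 moved in opposite directions in the groups where both were called.

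MTERF4 shares 51% of its exon bases with SNED1 on the opposite strand, and the strand setting of the counting is not given in the sources used here. SNED1 was at 0.967 to 3.23 CPM over the 59 libraries against 37.8 to 64.6 CPM for MTERF4. It also fell with Scutellariae Radix at 500 µg/mL (-1.24, adjusted p = 3.18e-06) and Coptidis Rhizoma at 210 µg/mL (-0.68, adjusted p = 0.00235). The library kit keeps strand. Hepatocyte marker RNA moved with MTERF4, with a mean sum of 45300 CPM with vehicle, 30200 with Scutellariae Radix at 500 µg/mL and 26000 with Coptidis Rhizoma at 210 µg/mL. With Pinelliae Tuber and Zizyphi Fructus at 500 µg/mL it was 45800 and 45500 CPM. The part of either in the result was not tested.

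LRPPRC, the scaffold that protects mitochondrial messenger RNAs and favours their polyadenylation (chromosome 2, 43886508 to 43996005, minus strand), had the highest level of the 10 and was at 558, 565 and 545 CPM with vehicle. With Coptidis Rhizoma at 8.4 µg/mL it stood at 630, 645 and 620 CPM (+0.18, SE 0.04, adjusted p = 0.000149), and at 42 µg/mL at 668, 673 and 676 CPM (+0.27, adjusted p = 7.19e-09). At 210 µg/mL it was close to the vehicle values at 547, 541 and 571 CPM (-0.01, not called). The 3 libraries at 42 µg/mL are the highest of all 59, and the 3 doses do not overlap. A direct test of 210 against 42 µg/mL, chosen after these values were seen, gave -0.28 (SE 0.04, adjusted p = 2.04e-09). Wortmannin lowered LRPPRC by a smaller step (506, 516 and 505 CPM, -0.13, adjusted p = 0.00412).

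SLIRP, the small RNA-binding partner that LRPPRC keeps stable (chromosome 14, 77708071 to 77761104, plus strand), was at 75.0, 77.8 and 71.4 CPM with vehicle. It fell with Coptidis Rhizoma at 210 µg/mL (57.1, 60.2 and 62.7 CPM, -0.32, SE 0.08, adjusted p = 0.000197), wortmannin (65.0, 60.4 and 59.5 CPM, -0.28, adjusted p = 0.00262) and Zingiberis Rhizoma Recens at 500 µg/mL (61.1, 62.3 and 63.8 CPM, -0.26, adjusted p = 0.00366), in each case below every vehicle library. A fall of 0.19 with Scutellariae Radix at 500 µg/mL (64.7, 65.5 and 66.3 CPM, adjusted p = 0.029) lost its call without extract replicate 1 or 2 or vehicle replicate 1 or 2, with a highest adjusted p of 0.113. With Zingiberis Rhizoma at 500 µg/mL the values were 92.2, 60.3 and 68.7 CPM. Replicate 1, a library that stands apart, was the highest of all 59 libraries, and the fitted change was -0.02 (not called). Without it the change was -0.22 (adjusted p = 0.00325). SLIRP did not follow LRPPRC with Coptidis Rhizoma: at 42 µg/mL, where LRPPRC was highest, SLIRP was at 71.9, 72.4 and 76.6 CPM (-0.02). Exons of SLIRP share 10.5% of their bases with C14orf178 on the same strand and 4.48% with SNW1 on the opposite strand. C14orf178 did not exceed 0.0784 CPM.

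PNPT1, polynucleotide phosphorylase, which degrades mitochondrial RNA together with the SUPV3L1 helicase and also sits in the space between the membranes (chromosome 2, 55634265 to 55693910, minus strand), was at 79.9, 78.7 and 76.1 CPM with vehicle. It rose at all 3 doses of Coptidis Rhizoma. The libraries were at 84.8, 87.9 and 88.1 CPM at 8.4 µg/mL (+0.15, adjusted p = 0.00139), 92.5, 95.6 and 95.7 CPM at 42 µg/mL (+0.27, adjusted p = 4.04e-09) and 95.4, 97.4 and 98.9 CPM at 210 µg/mL (+0.31, SE 0.04, adjusted p = 3.34e-11). All 9 lie above vehicle. Wortmannin gave the lowest values of all groups (63.3, 64.4 and 62.7 CPM, -0.30, adjusted p = 2.08e-09). PNPT1 also rose with both ginger extracts at 500 µg/mL (+0.17 and +0.12) and 100 µg/mL (+0.11 and +0.17) and with Scutellariae Radix at 500 µg/mL (+0.13), and fell with Pinelliae Tuber at 500 µg/mL (69.5, 71.7 and 70.7 CPM, -0.15, adjusted p = 0.00806). The rise with Zingiberis Rhizoma Recens at 100 µg/mL was lost without the filter on low counts (adjusted p = 0.196) and without extract replicate 1 or 3 or vehicle replicate 3 (adjusted p = 0.166, 0.11 and 0.132), and the fall with Pinelliae Tuber without vehicle replicate 1 (adjusted p = 0.0542).

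**Figure D3:**
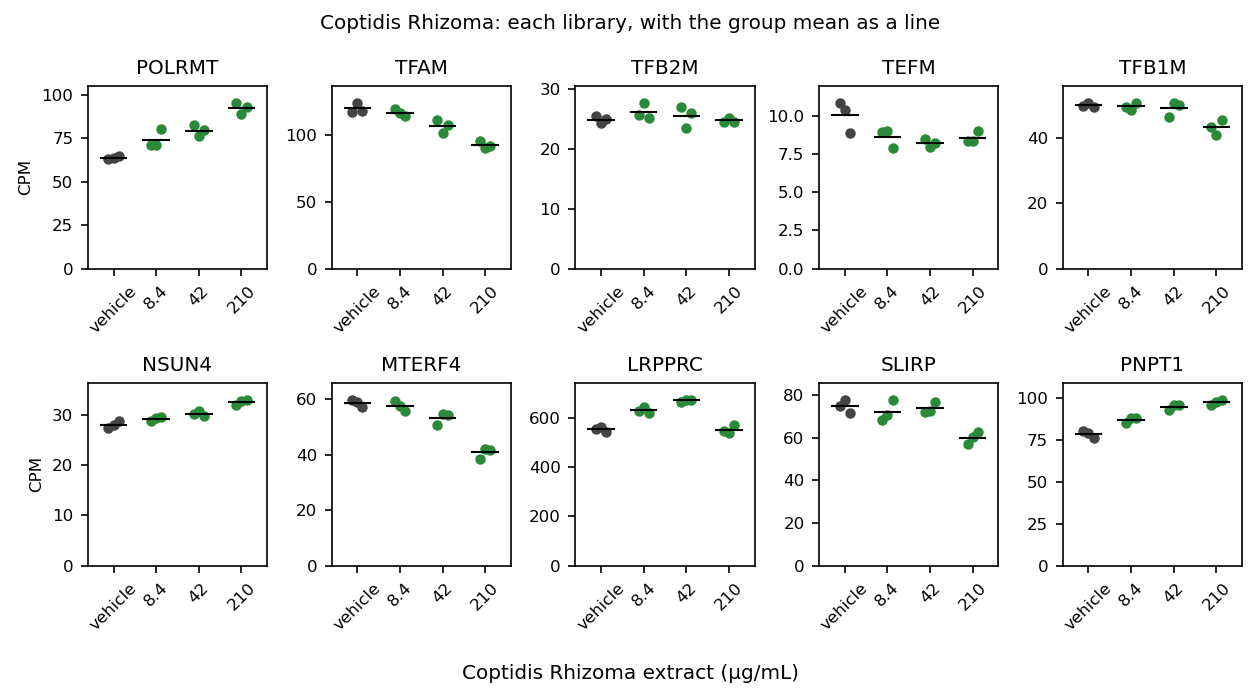
Levels in CPM (each axis linear from 0) of the 10 genes with vehicle (dark grey) and 8.4, 42 and 210 µg/mL Coptidis Rhizoma (green), with points for the 3 libraries of a group and a line for their mean. The means of POLRMT and PNPT1 climb with dose and those of TFAM and MTERF4 descend. The step of PNPT1 from 42 to 210 µg/mL was small and not called. LRPPRC peaks at 42 µg/mL, where its mean is 673 CPM against 556 CPM with vehicle and 553 CPM at 210 µg/mL.

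Top and bottom doses of the same extract were compared next, since these libraries share a title number and do not involve vehicle. MTERF4 was lower at the top dose in all 6 extracts. The change was -0.58 (SE 0.04) with Scutellariae Radix, -0.50 with Coptidis Rhizoma, -0.36 with both ginger extracts, -0.21 with Zizyphi Fructus and -0.20 with Pinelliae Tuber. The last 2 were no longer called when only the libraries of the comparison entered the fit (adjusted p = 0.371 and 0.0688), and that of Pinelliae Tuber was also lost without its 20 µg/mL replicate 3 (adjusted p = 0.156). POLRMT was higher with Coptidis Rhizoma (+0.32, adjusted p = 8.21e-07), Zingiberis Rhizoma (+0.23, adjusted p = 0.000344), Zingiberis Rhizoma Recens (+0.15, adjusted p = 0.015) and Scutellariae Radix (+0.13, adjusted p = 0.0358). The last 2 were lost when single libraries were left out, with a highest adjusted p of 0.253 and 0.151. POLRMT differed by +0.04 with Pinelliae Tuber and -0.03 with Zizyphi Fructus, neither called.

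TFAM was lower at the top dose with Coptidis Rhizoma (-0.33, adjusted p = 2.02e-11) and Scutellariae Radix (-0.29, adjusted p = 1.53e-09), and NSUN4 was higher with the same pair (+0.16 and +0.18). TFB1M was lower in 5 of 6 extracts, by 0.16 to 0.23 on the log2 scale. With Scutellariae Radix this call was lost without 20 µg/mL replicate 2 (adjusted p = 0.186) or 500 µg/mL replicate 3 (0.0748). With Zizyphi Fructus it was lost without the libraries that stand apart (-0.13, adjusted p = 0.186). PNPT1 was higher with Zingiberis Rhizoma Recens (+0.24), Zingiberis Rhizoma (+0.18) and Coptidis Rhizoma (+0.16) and lower with Pinelliae Tuber (-0.18). The Pinelliae Tuber call was lost without either 20 µg/mL library (adjusted p = 0.113 and 0.0832). SLIRP was lower with Coptidis Rhizoma (-0.27) and Zingiberis Rhizoma Recens (-0.23). With Zingiberis Rhizoma it differed by +0.01, and by -0.19 (adjusted p = 0.0117) without the 500 µg/mL replicate 1. LRPPRC was lower with Coptidis Rhizoma (-0.19) and TFB2M higher with Zingiberis Rhizoma Recens (+0.21), the second lost without 20 µg/mL replicate 3 (+0.13, adjusted p = 0.125).

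Counts of members higher and lower, with the share of all genes called, were 3 and 5 for Coptidis Rhizoma (65.8%), 2 and 3 for Scutellariae Radix (49.9%), 3 and 3 for Zingiberis Rhizoma Recens (48%), 2 and 2 for Zingiberis Rhizoma (40.9%), 0 and 2 for Zizyphi Fructus (7.22%, with 2.82% lower) and 0 and 2 for Pinelliae Tuber (1.9%, with 0.703% lower). Of these 27 calls, 19 held under every alternative. For Pinelliae Tuber and Zizyphi Fructus the fit on their own libraries called 0 members, and single libraries moved the counts between 0 and 4.

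**Figure D4:**
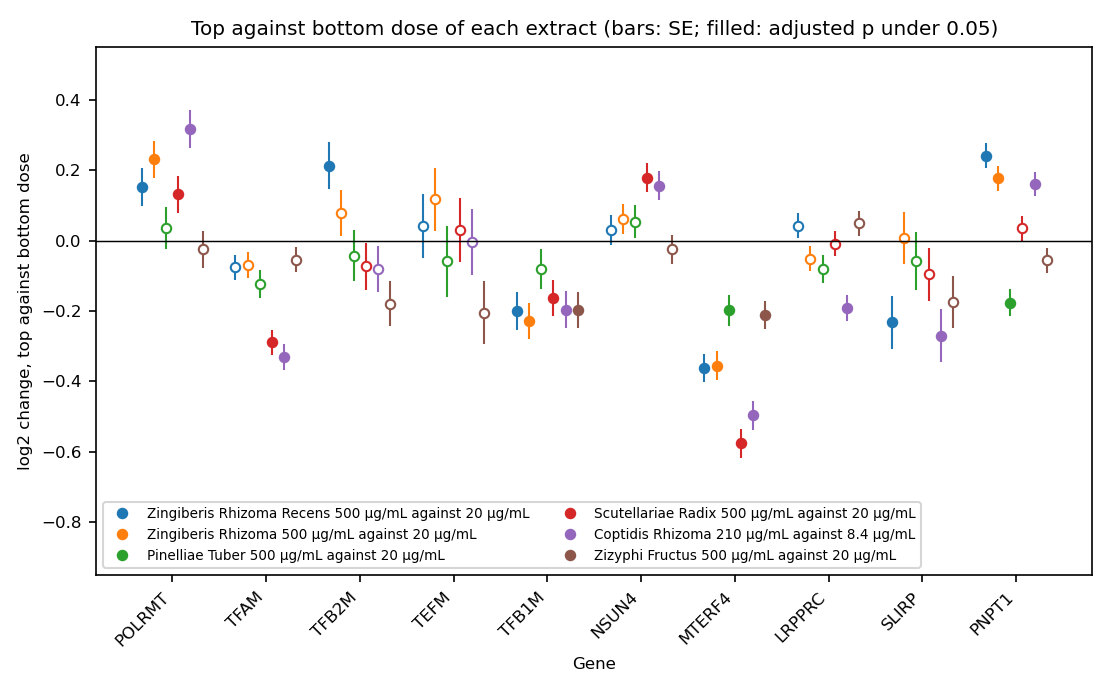
Log2 change from the bottom to the top dose of each of 6 extracts (colours) for the 10 genes, with SE as bars, filled where the adjusted p was under 0.05 and open otherwise. MTERF4 is filled and below 0 for all 6 extracts, and TFAM is filled for Scutellariae Radix (-0.29) and Coptidis Rhizoma (-0.33).

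Extracts were then compared directly where doses matched. Zingiberis Rhizoma Recens and Zingiberis Rhizoma, both from ginger, gave 0 members that differed at 500, 100 or 20 µg/mL, with 1.83%, 0.379% and 0.0481% of all genes called. The approximate 95% intervals of the 10 differences lay between -0.39 and 0.15 on the log2 scale at 500 µg/mL, -0.25 and 0.23 at 100 µg/mL and -0.27 and 0.23 at 20 µg/mL, so differences of the size of many called changes are not excluded by these data. For POLRMT at 500 µg/mL the difference was 0.04 (interval -0.07 to 0.15) and for MTERF4 0.06 (-0.03 to 0.14). SLIRP was the nearest to the threshold at 500 µg/mL (-0.24, adjusted p = 0.0944), and it passed without the filter on low counts (adjusted p = 0.000514) and without Zingiberis Rhizoma replicate 2 (-0.36, adjusted p = 0.00132). Without Zingiberis Rhizoma replicate 1, the library at 92.2 CPM, the SLIRP difference was -0.05 (adjusted p = 0.924).

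Scutellariae Radix and Zingiberis Rhizoma Recens at 500 µg/mL differed in 4 members, 3 higher and 1 lower with Scutellariae Radix, with 34.8% of all genes called. MTERF4 was lower by 0.33 on the log2 scale (SE 0.04, adjusted p = 1.06e-08) and NSUN4 higher by 0.24 (adjusted p = 9.89e-06). TFB1M (+0.16, adjusted p = 0.0161) and LRPPRC (+0.10, adjusted p = 0.0277) were higher too, but TFB1M lost its call without Scutellariae Radix replicate 1 (adjusted p = 0.058) and LRPPRC without Scutellariae Radix replicate 3, Zingiberis Rhizoma Recens replicate 2 or the filter on low counts (adjusted p = 0.0602, 0.141 and 0.151). POLRMT differed by -0.03 (interval -0.14 to 0.08).

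The change from 20 to 500 µg/mL was also compared between extracts with an interaction term. Between the 2 ginger extracts 0 members differed (0.655% of all genes called). Scutellariae Radix against Pinelliae Tuber differed for MTERF4 (-0.38, SE 0.06, adjusted p = 1.15e-06), PNPT1 (+0.21, adjusted p = 0.00116) and TFAM (-0.17, adjusted p = 0.0124), with 34.7% of all genes called. Scutellariae Radix against Zingiberis Rhizoma Recens differed for TFB2M (-0.29, adjusted p = 0.0165), MTERF4 (-0.21, adjusted p = 0.00356), TFAM (-0.21, adjusted p = 0.000985) and PNPT1 (-0.21, adjusted p = 0.00117), with 28.4% of all genes called and 16.5% in that direction. In both cases MTERF4 fell more with Scutellariae Radix. The call of TFB2M was lost without any of 4 single libraries (highest adjusted p 0.11), and that of TFAM against Pinelliae Tuber without 500 µg/mL replicate 2 or 20 µg/mL replicate 3 of Pinelliae Tuber (adjusted p = 0.1 and 0.0574).

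Within Coptidis Rhizoma, 210 against 42 µg/mL, a comparison added for LRPPRC, called 2 members higher and 5 lower, with 56.4% of all genes called. Besides LRPPRC, MTERF4 (-0.39), SLIRP (-0.30), TFAM (-0.20) and TFB1M (-0.18) were lower, and POLRMT (+0.22) and NSUN4 (+0.11) higher. PNPT1 (+0.04, interval -0.03 to 0.11), TEFM (+0.06) and TFB2M (-0.04) were not called. The call of NSUN4 (adjusted p = 0.028) was lost without 210 µg/mL replicate 2 or 3 or 42 µg/mL replicate 1 or 3, with a highest adjusted p of 0.0867.

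The transcripts that these factors make and keep, the 13 messenger RNAs encoded in mitochondrial DNA, were measured in the same libraries. Their sum was 64700 to 72900 CPM with vehicle, 51700 to 66000 with Coptidis Rhizoma at 8.4 µg/mL, 42900 to 51600 at 42 µg/mL and 39000 to 44900 at 210 µg/mL. At 210 µg/mL, with 69.4% of all genes called, 12 of 13 fell and 0 rose (median -0.68), among them MT-ND4L (-1.25) and MT-ND3 (-0.88), both subunits of respiratory complex I. At 8.4 µg/mL, with 16% of all genes called, 7 fell and 4 rose. The falls were led by MT-ND4 (-1.21) and MT-ND4L (-1.14). The 4 that rose, named here after their values were seen, were MT-ND5 (+1.12), MT-ND6 (+0.90), MT-CYB (+0.87) and MT-ND1 (+0.45). Thus at the dose where only POLRMT, LRPPRC and PNPT1 were called among the 10 factors, mitochondrial messenger RNAs differed in both directions. With wortmannin, where 6 factors fell, 0 of 13 mitochondrial messenger RNAs were called (median -0.09). With Scutellariae Radix at 500 µg/mL 4 of 13 rose and 0 fell (median +0.21), MT-ND4L (+0.41) the most, a smaller share than the 50.2% of all genes called. Transcripts of mitochondrial DNA come from few promoters and can share reads with nuclear copies, so their split between genes by the authors' counting is uncertain.

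Other nuclear genes of the pathway behaved as follows. With wortmannin, 13 of 19 genes for mitochondrial RNA processing and decay fell and 0 rose (median -0.14, against 0.02 over all genes tested). SUPV3L1, the helicase partner of PNPT1, fell by 0.36 on the log2 scale, and ELAC2, which trims transfer RNA ends, by 0.30. Of 12 genes for mitochondrial DNA replication 6 fell and 0 rose (TWNK, the replicative helicase, -0.36, and SSBP1, the single-strand binding protein, -0.34). Of 17 genes for ribosomal and transfer RNA modification 8 fell and 0 rose (MRM1, a ribosomal RNA methyltransferase, -0.41). MTERF3 (-0.34) and MTERF1 (-0.24) fell among the 3 other genes of the MTERF family, where MTERF4 was at +0.06. The falls of 6 of the 10 factors with wortmannin stood beside falls in each of these lists, with 16% of all genes tested falling.

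With Coptidis Rhizoma at 210 µg/mL genes moved in both directions within the lists, and 69.4% of all genes were called. Of the 19 processing genes 9 rose and 7 fell, with FASTKD5, needed for processing of non-canonical transcript ends, at +0.79 and its family members FASTK at -0.75 and FASTKD3 at -0.65. Of the 17 modification genes 8 rose and 5 fell (MRM2, a methyltransferase of the large ribosomal RNA, -0.65). Of the 12 replication genes 2 rose and 6 fell, among them MGME1, a mitochondrial nuclease, at -0.67. MTERF2 (-0.49) and MTERF1 (-0.33) fell with MTERF4. With Scutellariae Radix at 500 µg/mL 9 processing genes rose and 3 fell (REXO2, which clears short RNA fragments, +0.42), 3 replication genes rose and 5 fell, 5 modification genes rose and 4 fell, and none of the 3 other MTERF genes was called, with 50.2% of all genes called. With Zingiberis Rhizoma Recens at 500 µg/mL 8 processing genes rose and 2 fell (REXO2 +0.58, FASTKD5 +0.34), 3 replication genes rose and 2 fell, 3 modification genes rose and 2 fell, and 1 other MTERF gene fell (MTERF2, -0.29), with 46% of all genes called. These lists were drawn up with earlier results of these data known.

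Among 9 tested regulators of nuclear genes for mitochondria, 3 rose and 3 fell with Coptidis Rhizoma at 210 µg/mL (69.4% of all genes called). Scutellariae Radix at 500 µg/mL gave 2 higher and 6 lower (50.2%). Zingiberis Rhizoma Recens at 500 µg/mL gave 2 and 4 (46%), and wortmannin 1 and 3 (32.2%). These counts of regulators are with RLE size factors, an alternative to TMM scaling, and all other values are with TMM. ESRRA, an orphan nuclear receptor, rose with Coptidis Rhizoma at 210 µg/mL (+0.97, adjusted p = 6.65e-16), Scutellariae Radix at 500 µg/mL (+0.68) and Zingiberis Rhizoma Recens at 500 µg/mL (+0.55). NRF1, whose core motif is marked in the POLRMT and TFB1M stretches above, fell with Scutellariae Radix (-0.57, adjusted p = 2.48e-09) and Zingiberis Rhizoma Recens (-0.33) at these doses, with Coptidis Rhizoma at 210 µg/mL (-0.44, adjusted p = 3.88e-07, named after its value was seen) and with wortmannin (-0.26). POLRMT rose in all 3 of these extract groups and TFB1M fell in the second and the third. TFB2M, which also holds the NRF1 core in its window, rose in the second and was not called in the first and the third. With wortmannin TFB1M (-0.32) and TFB2M (-0.21) fell and POLRMT was not called. A link between NRF1 and these genes was not tested. GABPA, the DNA-binding part of GABP, fell with Scutellariae Radix (-0.37). PPARGC1A, a coactivator of mitochondrial gene programmes, rose with wortmannin (+0.42) and Zingiberis Rhizoma Recens (+0.41) and fell with Coptidis Rhizoma at 210 µg/mL (-0.46), while, named here after its values were seen, it rose at 42 µg/mL (+0.49) and 8.4 µg/mL (+0.39) of the same extract.

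Across the 20 group means the members did not move as a block. Pearson correlations of mean log2 CPM describe 20 points that share libraries of 4 title numbers and, in part, dose. The highest were 0.80 between POLRMT and PNPT1, 0.72 between TFB1M and SLIRP and 0.70 between POLRMT and NSUN4. Next were 0.69 between NSUN4 and PNPT1 and 0.68 between TFAM and MTERF4. The lowest were -0.70 between POLRMT and MTERF4 and -0.80 between MTERF4 and NSUN4. Outside the list, the genes most like MTERF4 by the same measure were ANXA4 (0.967), FGFR3 (0.948) and ASGR1 (0.944). Those most like PNPT1 were RPF2 (0.969), DDX21 (0.964) and MAK16 (0.963).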

How the data were processed

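HepG2 messenger RNA was sequenced with a directional kit as paired reads of 100 bases, per the labels' protocols. Per the submitters' processing notes the authors used RSEM 1.3.3, STAR 2.7.3a, Trim Galore 0.6.5 and FastQC 0.11.9, with GRCh38/hg38. The annotation is not given in the sources used here, nor is the strand setting. The deposited values are RSEM expected counts, with 24.44% of nonzero values not whole. They were rounded. Of 267 value columns 59 matched samples by title code, and 208 were not used. Symbols matched 56558 of 60675 identifiers, and coordinates are those of GENCODE 29.

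With edgeR 4.0.16 in R 4.3.3, genes were filtered with filterByExpr by group (16641 kept), scaled by TMM, and fitted in 1 quasi-likelihood model of 20 group means without a replicate block. Tests are two-sided with Benjamini-Hochberg adjustment over all genes tested (threshold 0.05). The 4 families were 19 comparisons with vehicle, 6 of top and bottom dose, 4 between extracts and 3 interactions. 1 more comparison (Coptidis Rhizoma 210 against 42 µg/mL) was added after its values were seen. Intervals are the change ± the 95% t quantile at 39 degrees of freedom times SE. The fit was tested on simulated data. Depth was 21582620 to 31392112 counts per library (median 25834202), and the biological coefficient of variation was 4.41%. The lowest count in a library was 197 for TEFM, where counting error is larger than that, 499 for TFB2M and 615 for NSUN4, where it is about as large, and at least 930 for the other members. Intervals and SE do not cover differences between cultures that were not sampled.

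Alternatives were RLE size factors, no filter beyond a total above 0, DESeq2 1.42.0, only the groups compared, a replicate block, leaving out the 3 libraries that stand apart, and leaving out each library. Members and lists were chosen with earlier results of these data known. All 10 members are named. Of other lists, up to 3 called genes with the largest change and 1 uncalled gene could be named per comparison, and the genes of like pattern are the 3 with the highest Pearson r for the 2 members of widest range. Library pairs of a group differed by a mean chi-square of 2.06 to 39.1 per gene (genes with a summed count of at least 100), so none was a duplicate.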

Additional observations from a re-analysis of the deposited data

Results flagged for a closer look

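In 7 cases the change from 20 to 500 µg/mL of a member differed between extracts by the test of the difference itself (edgeR's quasi-likelihood test of the interaction, adjusted over all genes). Between Scutellariae Radix and Pinelliae Tuber the differences were -0.165 for TFAM, -0.378 for MTERF4 and 0.21 for PNPT1, with 34.7% of all genes called. In these, TFAM changed by -0.29 with Scutellariae Radix and -0.12 with Pinelliae Tuber, MTERF4 by -0.58 and -0.20, and PNPT1 by +0.04 and -0.18. Between Scutellariae Radix and Zingiberis Rhizoma Recens the differences were -0.213 for TFAM, -0.286 for TFB2M, -0.214 for MTERF4 and -0.206 for PNPT1. In that comparison 28.4% of all genes were called and 16.5% were called in that direction. With Zingiberis Rhizoma Recens TFAM changed by -0.08, TFB2M by +0.21, MTERF4 by -0.36 and PNPT1 by +0.24. Groups of 3 libraries were too small for a formal test of single outlying values of a gene. Whole libraries that stand apart were marked by the chi-square per gene, and each library was left out in turn. Pinelliae Tuber at 20 µg/mL rests on 2 libraries.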

How the results depend on the processing

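Calls against vehicle totalled 58, and 50 to 59 with single libraries left out. The totals were 27 (25 to 29) for top against bottom dose, 4 (3 to 5) between extracts, 7 (6 to 8) for interactions and 7 (6 to 7) for the added Coptidis Rhizoma comparison. Same-numbered replicates did not deviate together in any comparison (r from -0.07 to 0.06), and with the replicate block the totals were 58, 27, 4, 7 and 7, with none of the 330 member values changing its call. RLE size factors changed none of the 330 either, DESeq2 changed 3, no filter 16, leaving out the libraries that stand apart 11, and fitting only the groups compared 19. RLE size factors moved the median over all genes by -0.006 to 0.016.

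Without the filter on low counts the number called became 2 (from 4) for Pinelliae Tuber at 500 µg/mL, 1 (from 0) for Pinelliae Tuber at 100 µg/mL and Zizyphi Fructus at 20 µg/mL, all against vehicle, and 1 (from 0, SLIRP) between the ginger extracts at 500 µg/mL. With only the groups compared it became 1 (from 0) for Zingiberis Rhizoma at 20, Pinelliae Tuber at 20 and Zizyphi Fructus at 100 µg/mL, 5 (from 1) for Zizyphi Fructus at 500 µg/mL, and 0 (from 2) for top against bottom dose of Pinelliae Tuber and of Zizyphi Fructus. Without the libraries that stand apart it became 2 (from 1) for Zingiberis Rhizoma Recens at 20 µg/mL, 3 (from 1) for Zizyphi Fructus at 500 µg/mL and 1 (from 2) for its top against bottom dose. DESeq2 gave 2 (from 1) for Zingiberis Rhizoma Recens at 20 and Zizyphi Fructus at 500 µg/mL. The cause was not tested. SLIRP for Zingiberis Rhizoma at 500 against 20 µg/mL turned from 0.007 to -0.187 without those libraries and ranged from -0.186 (without replicate 1 at 500 µg/mL) to 0.136 (without replicate 2) with single libraries left out. Replicate 1 is the library whose SLIRP stood at 92.2 CPM.

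With single libraries left out the counts ran from 0 to 1 for Zingiberis Rhizoma Recens at 20 µg/mL, 2 to 5 for Pinelliae Tuber at 500 µg/mL, 1 to 2 for Scutellariae Radix at 20 µg/mL, 0 to 3, 3 to 5 and 1 to 4 for the dose comparisons of Pinelliae Tuber, Scutellariae Radix and Zizyphi Fructus, and 0 to 1 for the ginger extracts at 500 µg/mL and for their interaction (SLIRP without Zingiberis Rhizoma 500 µg/mL replicate 2, adjusted p = 0.0248). A lone remaining Pinelliae Tuber 20 µg/mL library was assumed to vary like the other groups. Depth limits TEFM most (197 counts in its lowest library), then TFB2M (499) and NSUN4 (615).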
